A study of Mus musculus with 28 samples.

Results

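Whole-brain RNA from mice in remyelination that lacked tumour necrosis factor receptor 1 (TNFR1) in microglia was compared with whole-brain RNA from control mice at the peak of demyelination. The 14 libraries compared, 7 in each group, were chosen by their titles from the 28 libraries of the series, and the comparison was read across every gene. The demyelination group (titled TNFR1ff) carried a floxed Tnfr1 gene, was backcrossed onto C57BL/6 and was sampled at the cuprizone stage coded 5. The knockout remyelination group (titled mgTNFR1KO, Cx3cr1-CreER.Tnfr1ff) carried the same floxed gene together with Cx3cr1-CreER, a Cre recombinase that works only after tamoxifen and is driven by the Cx3cr1 gene. It had received tamoxifen, described as therapeutic, and was sampled at the stage coded 6+1. The design text gives these stage numbers without a unit, and it gives no age and no statement on tamoxifen for the controls. The other 2 groups of 7, both TNFR1ff, were naive mice and control mice in remyelination at the same 6+1 stage. Stage, Cre genotype and the deletion intended to follow tamoxifen differ between knockout remyelination and demyelination, and exposure to tamoxifen itself may differ. The parts of these in any difference cannot be told apart within that comparison. Control remyelination shares its stage with the knockout group, so its levels are given beside selected results, though not beside every gene.

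Cuprizone, a dietary toxin that binds copper, causes the death of oligodendrocytes, the cells that make myelin. Microglia and astrocytes react, and microglia take up the myelin debris. After withdrawal, precursor cells mature into new oligodendrocytes, and this needs the synthesis of large amounts of lipid and cholesterol in the brain itself. TNFR1, encoded by Tnfrsf1a, is the main receptor for tumour necrosis factor on most cells and signals through NF-kB and cell death pathways. Deletion under Cx3cr1-CreER reaches microglia and other cells that express Cx3cr1.

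Libraries were made with QuantSeq, a method that reads transcripts from their 3′ ends, and levels are compared here within a gene and not between genes. Total counts per library ranged from 1531729 to 2986509 in knockout remyelination and from 1695221 to 2417170 in demyelination, where 3 counts correspond to at most 1.96 and 1.77 CPM (counts scaled to library size), respectively. Knockout library 1 stood apart, with 1.33% of its counts in the most abundant gene, which has no symbol, against 10.2% to 17.1% in the other 6 knockout libraries and 5.68% to 15.4% in demyelination. The share of mitochondrially encoded counts was 8.39% to 14.4% in knockout remyelination and 9.90% to 14.1% in demyelination. Brain markers were present in every group: means in knockout remyelination and demyelination were 2676 and 2416 CPM for the neuronal gene Syt1, 105 and 107 CPM for the astrocyte gene Aqp4, 21.3 and 23.4 CPM for the precursor gene Pdgfra, and 78.5 and 98.0 CPM for the microglial gene Csf1r. Of 13 genes of lymphocytes, 2 had counts high enough to test, and of 13 genes of monocytes, neutrophils and border macrophages, 1 had. The labels do not say whether the samples of a group came from separate animals. The p-values therefore set a difference against the spread between samples, which the main fit estimated over all 28 libraries. In whole tissue, fewer cells of a type and less RNA per cell cannot be told apart.

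The gene targeted in the knockout group was measured first. Tnfrsf1a ranged from 16.5 to 30.4 CPM, with a median of 21.8 CPM, in knockout remyelination and from 19.8 to 32.8 CPM, with a median of 27.2 CPM, in demyelination. The groups overlapped, and the log2 difference was -0.29 ± 0.17 (SE, adjusted p = 0.555). Control remyelination stood at 23.2 ± 4.47 CPM and naive brain at 13.4 ± 3.07 CPM (SD, n = 7). The read lies at the 3′ end, which may be outside the deleted part, and most cells of the brain keep the gene, so this level checks neither the deletion nor the labels. The second receptor, Tnfrsf1b, had 28 counts over the knockout libraries and 21 over the demyelination libraries, and the ligand gene Tnf had no count in either group, so neither was tested.

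Between knockout remyelination and demyelination, 75 of 12424 genes tested (0.604%) passed an adjusted p below 0.05 in edgeR's quasi-likelihood test with Benjamini-Hochberg adjustment. Of these, 46 (0.37% of genes tested) were higher and 29 (0.233%) were lower in knockout remyelination. The higher genes were led by those of mature, myelinating oligodendrocytes, and the lower genes by a collagen, microglial and lysosomal genes, and a pair of stress-induced transcriptional regulators. The change exceeded 2-fold for 22 higher and 11 lower genes. The median log2 difference over all genes tested was -0.01. An unadjusted p below 0.05 in the same test was reached by 1330 of the 12424 genes. That share is the background for the list counts at an unadjusted p given below. The 7 libraries of each group did not overlap for 36 of the 75 genes, 22 higher and 14 lower. Among all genes tested, 52 (0.419%) had groups that did not overlap, 30 higher (0.241%) and 22 lower (0.177%). In all 22 alternative analyses, among them the 14 that left out 1 library each, 39 of the 75 genes kept their call, 30 higher and 9 lower. Without demyelination library 6 the count of lower genes fell to 11, and it was 17, 18, 19 and 19 without knockout libraries 7 and 2 and demyelination libraries 2 and 7.

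**Figure D1:**
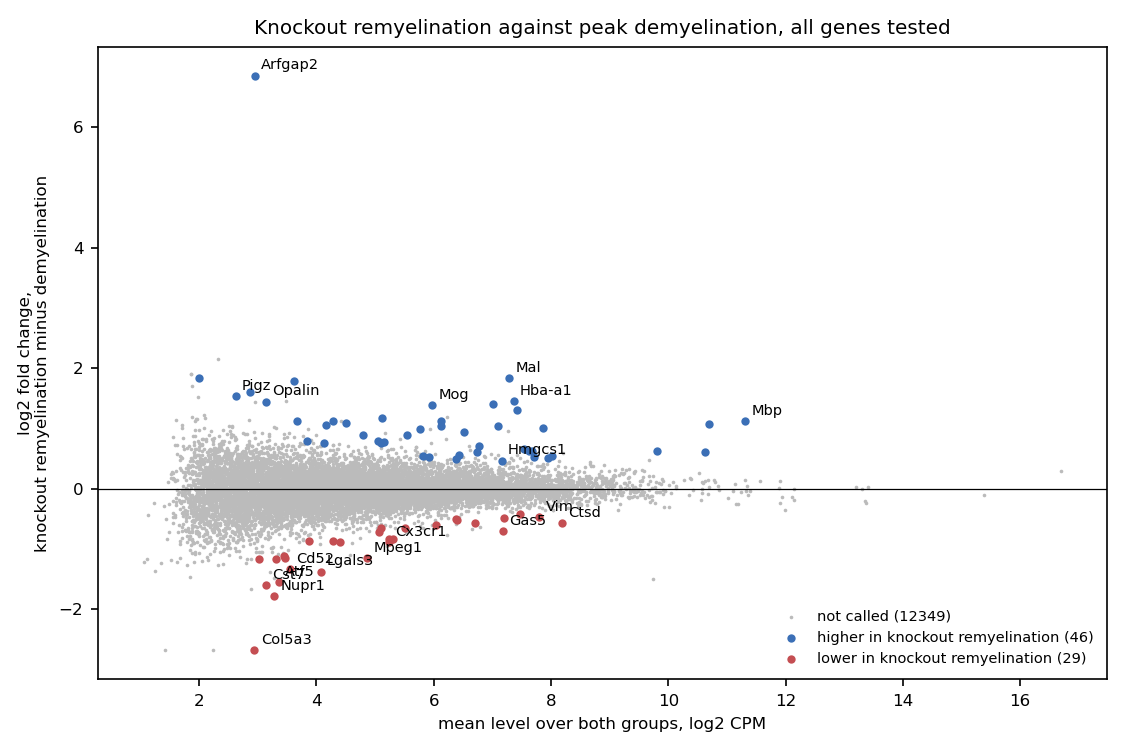
Log2 fold change of knockout remyelination minus demyelination (y axis) against mean level over both groups in log2 CPM (x axis) for the 12424 genes tested; blue and red points are the 46 higher and 29 lower genes. Myelin genes such as Mbp and Mal are called at high levels, the lower genes sit mostly at low levels, and Arfgap2, with 1 count in the whole demyelination group, has a fitted value that is no measure of size.

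Myelin and mature oligodendrocyte genes were the largest group of changed genes. Of 38 tested, 18 were higher, 0 were lower and 20 did not pass, and the median log2 difference was 0.70, beside -0.01 over all genes. Leaving out a library gave 17 to 19 higher members. The summed level of the list was 10517 to 12126 CPM in the knockout libraries and 6738 to 8121 CPM in demyelination, without overlap, and it was 9559 to 11089 CPM in control remyelination and 10696 to 11979 CPM in naive brain. The lowest members were Evi2a at -0.38, Gatm at -0.30 and Trf, the gene of the iron carrier transferrin, at -0.28 (adjusted p = 0.704, 0.404 and 0.394; named after their values were seen).

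Mal encodes a proteolipid that sorts membrane to compact myelin. Its level was 212 CPM in the lowest knockout library, 241 CPM at the median and 264 CPM in the highest, and 46.5, 63.2 and 94.1 CPM in demyelination. Every knockout library was therefore above every demyelination library. Mean levels were 68.0 ± 16.4 and 244 ± 19.6 CPM (SD, n = 7), a 3.59-fold rise (log2 1.84 ± 0.114, adjusted p = 3.31e-15, where ± beside a log2 value is its SE). Control remyelination stood at 237 ± 22.1 CPM and naive brain at 273 ± 34.8 CPM. Mal in knockout remyelination differed from control remyelination by 0.04 ± 0.11 (log2, adjusted p = 0.95) and from naive brain with an adjusted p of 0.416.

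Mbp, whose product holds the inner faces of the myelin membrane together, ranged from 1408 to 1767 CPM in demyelination (median 1581) and from 2440 to 4117 CPM in knockout remyelination (median 3538). It rose 2.19-fold, by 1.13 ± 0.0965 on the log2 scale (adjusted p = 7.91e-11). The groups did not overlap. The mean in control remyelination was 3159 CPM, and the log2 difference of the knockout group from it was 0.14 ± 0.0952.

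Mog encodes a protein of the outermost myelin layer. It ranged from 27.2 to 46.1 CPM (median 31.8) in demyelination and from 65.7 to 117 CPM (median 89.4) in knockout remyelination, a log2 rise of 1.40 (SE 0.131, adjusted p = 1.15e-09). Mobp, the gene of a basic protein of the major dense line, ranged from 121 to 204 CPM and from 275 to 374 CPM, a log2 rise of 1.02 (SE 0.106, adjusted p = 1.5e-08). Prr18, which belongs to no list used here, rose by 1.04 from 40.0 to 56.0 CPM to 79.8 to 109 CPM. The groups did not overlap for any of these 3 genes.

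Ppp1r14a, the gene of an inhibitor of myosin phosphatase, had 0.94 to 7.36 CPM in demyelination and 5.15 to 14.7 CPM in knockout remyelination, where 5 of 7 libraries were above the highest demyelination library. Its log2 rise was 1.61 ± 0.347 (adjusted p = 0.0115). Adamtsl4, a secreted ADAMTS-like protein gene, rose by 1.84 ± 0.418 (adjusted p = 0.0203) from a mean of 1.70 to 6.24 CPM. That call was lost without knockout library 7 or demyelination library 3 or 6, with an adjusted p of up to 0.058.

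Other called members of the myelin list, named after their values were seen, fell into several roles. Cldn11, which seals the myelin lamellae with tight junctions, rose by 0.95 on the log2 scale, from 46.5 to 84.9 CPM to 102 to 145 CPM. Mag, an adhesion molecule facing the axon, rose by 1.31, and Opalin, an oligodendrocyte membrane glycoprotein, by 1.45. Fa2h and Ugt8a, which make hydroxylated fatty acids and galactosylceramide for myelin lipids, rose by 1.13 and 1.10. Gsn, the actin-severing protein gelsolin, rose by 1.13, Tspan2, a tetraspanin, by 0.80, Cnp, a myelin enzyme, by 0.71, Plekhb1 by 0.65 and Cryab, a small heat shock protein gene, by 0.53. The adjusted p of these 10 genes lay between 1.59e-07 for Gsn and 0.013 for Tspan2, and all 10 kept their call in every alternative.

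No gene of the earlier stages of the oligodendrocyte lineage passed. Among 17 oligodendrocyte precursor genes tested, 0 passed in edgeR and 0 in DESeq2, with 5 at an unadjusted p below 0.05 and a median log2 difference of -0.09. Among 18 genes of newly formed oligodendrocytes, 0 passed in either tool, with 4 at an unadjusted p below 0.05 and a median of 0.03. Serpine2, a protease inhibitor gene on the precursor list, had 182 to 240 CPM in demyelination and 144 to 202 CPM in knockout remyelination (log2 difference -0.30 ± 0.093, adjusted p = 0.16). Rras2, a Ras-related gene on the newly formed list, had 6.06 to 14.7 CPM and 14.5 to 23.2 CPM (0.61 ± 0.22, adjusted p = 0.265). The summed level of the newly formed list was 999 to 1131 CPM in the knockout libraries and 927 to 1118 CPM in demyelination.

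**Figure D2:**
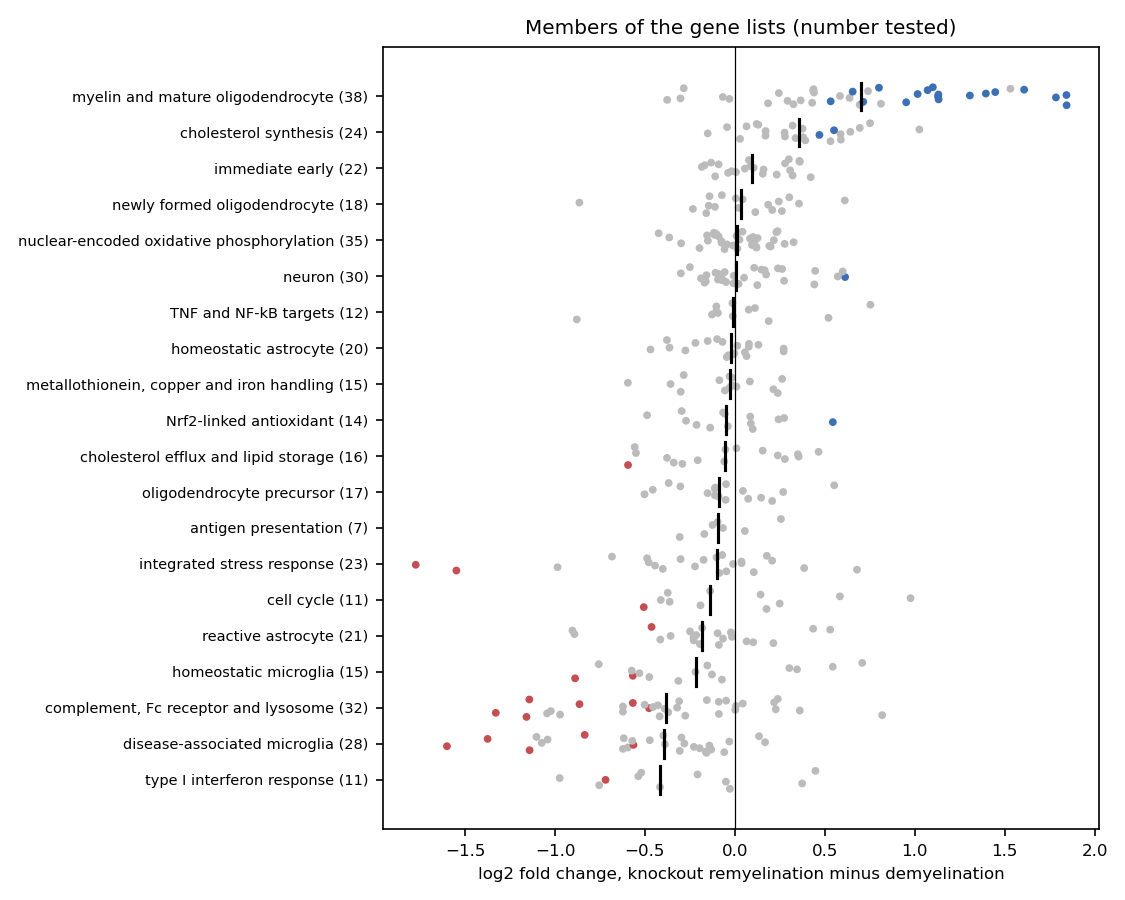
Log2 fold change of knockout remyelination minus demyelination (x axis) for each tested member of the 20 gene lists (y axis, number tested in brackets); blue points are called higher, red points called lower, grey points not called, and black bars are list medians. The myelin list has 18 of 38 members called higher, and called lower members are mostly microglial and lysosomal.

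Among 24 cholesterol synthesis genes tested, 2 were higher, 0 were lower, 22 had a positive log2 difference and 10 had an unadjusted p below 0.05, all in the higher direction. The median was 0.36. DESeq2 called 3. Their summed level was 857 to 1093 CPM in the knockout libraries and 714 to 803 CPM in demyelination, without overlap, 858 to 963 CPM in control remyelination and 1036 to 1149 CPM in naive brain.

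Msmo1, the gene of a sterol methyl oxidase, had 30.8 to 55.5 CPM in demyelination (median 46.8) and 52.7 to 79.7 CPM in knockout remyelination (median 69.0), with 6 of 7 knockout libraries above the highest demyelination library. It rose by 0.55 ± 0.117 (log2, adjusted p = 0.00973). In a fit of only the groups compared the adjusted p was 0.0519. Hmgcs1, the gene of the cytosolic enzyme that makes HMG-CoA, had 94.0 to 140 CPM (median 122) and 129 to 216 CPM (median 160). It rose by 0.47 ± 0.109 (adjusted p = 0.0262), a call lost without knockout library 1 or 5 or demyelination library 3, 6 or 7, with an adjusted p of up to 0.0925, and with library totals in place of TMM (0.0586) or only the groups compared (0.0589). Hmgcs1 stood at 256 ± 38.9 CPM in naive brain, above knockout remyelination (adjusted p = 0.00039), and at 173 ± 18.3 CPM in control remyelination.

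The promoter of Hmgcs1 is shown because it holds a sterol regulatory element, the motif bound by the SREBP factors that drive sterol synthesis genes. The 250 bases before the start of the gene are given from RefSeq on GRCm38.p6, chr13:119690101-119690350, plus strand, with the motif in capitals, its first base 137 bases before the start.
Hmgcs1: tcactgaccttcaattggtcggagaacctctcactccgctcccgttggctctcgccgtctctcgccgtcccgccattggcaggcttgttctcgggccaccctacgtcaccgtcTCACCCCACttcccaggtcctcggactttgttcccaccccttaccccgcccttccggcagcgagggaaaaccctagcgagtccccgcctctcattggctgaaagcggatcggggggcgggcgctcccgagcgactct
The letters searched, TCACNCCAC on both strands, occurred in 408 of 32851 promoter windows (1.24%). Counted per gene, they occurred for 388 of 27025 genes (1.44%) and for 1 of 17 cholesterol synthesis genes with a window, which was Hmgcs1. The other called gene, Msmo1, had no match in its window. A match is a description of the letters and was not tied to binding here.

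The other lipid list, of cholesterol efflux and storage, had 1 of 16 members called. Abca1, the transporter that exports cholesterol from cells, had 67.8 to 91.8 CPM in demyelination (median 76.6) and 36.4 to 73.7 CPM in knockout remyelination (median 51.1). The log2 difference was -0.59 ± 0.145 (adjusted p = 0.0368). The call did not hold without knockout 2, 3, 5, 6 or 7 or demyelination 2, 3, 6 or 7, where the adjusted p reached 0.104. It was also lost with library totals in place of TMM (adjusted p = 0.065) and with the replicate number as a block (0.0515). Apoe, the brain's main lipid carrier (named after its values were seen), had means of 2473 CPM in demyelination and 2374 CPM in knockout remyelination, a log2 difference of -0.06 (adjusted p = 0.896).

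Col5a3, which encodes a chain of type V collagen, fell furthest among called genes. It had 11.3 CPM in the lowest demyelination library, 13 CPM at the median and 15.2 CPM in the highest, and 0, 2.45 and 5.43 CPM in knockout remyelination. No knockout library reached the lowest demyelination library. The log2 difference was -2.68 ± 0.421 (adjusted p = 0.000122), a 6.41-fold fall. Control remyelination had 1.95 ± 1.20 CPM and naive brain 2.55 ± 1.30 CPM, and the knockout group differed from the first by 0.03 ± 0.50 (log2, adjusted p = 0.994). The list of meningeal and collagen genes had 0 of 11 members called in edgeR and 0 in DESeq2, with 4 at an unadjusted p below 0.05 and a median of 0.38.

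Of 23 genes of the integrated stress response, the programme that ATF4 runs when translation is curbed, 2 were lower, 0 were higher and the median was -0.10. An unadjusted p below 0.05 in edgeR was reached by 10 of the 23, 9 lower and 1 higher. Both called genes are transcriptional regulators induced by stress. Atf5 ranged from 8.38 to 20.4 CPM in demyelination (median 16.2) and from 1.81 to 7.69 CPM in knockout remyelination (median 5.58). It fell 2.93-fold, by 1.55 ± 0.276 on the log2 scale (adjusted p = 0.000977). Nupr1 ranged from 12.5 to 22.2 CPM (median 13.6) and from 1.03 to 7.85 CPM (median 3.90), a 3.42-fold fall (log2 -1.77 ± 0.338, adjusted p = 0.00247). Neither gene's groups overlapped. Control remyelination had 3.60 ± 1.17 CPM of Atf5 and 3.67 ± 2.14 CPM of Nupr1, and naive brain had 2.78 ± 0.774 and 2.86 ± 1.64 CPM. The log2 differences of the knockout group from control remyelination were 0.52 ± 0.308 for Atf5 and 0.21 ± 0.373 for Nupr1.

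The promoter of Nupr1 is shown because it holds the letters of an ATF4-type element. The 250 bases before the start are from RefSeq on GRCm38.p6, chr7:126625471-126625720, minus strand, with the element, which begins 110 bases before the start and is read on the reverse strand, in capitals.
Nupr1: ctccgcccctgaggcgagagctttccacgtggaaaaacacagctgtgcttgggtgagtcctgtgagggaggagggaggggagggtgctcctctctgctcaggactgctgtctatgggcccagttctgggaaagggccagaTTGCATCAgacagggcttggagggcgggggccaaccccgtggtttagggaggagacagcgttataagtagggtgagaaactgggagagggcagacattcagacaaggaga
TGATGNAA on both strands was found in 1304 of 32851 windows (3.97%). Counted per gene, it was found for 1219 of 27025 genes (4.51%) and for 9 of 25 integrated stress response genes with a window (36%). The windows of Atf5 held no match.

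Genes of disease-associated microglia, a state that microglia enter around damaged tissue, held 5 of the lower genes. Of 28 tested, 5 were lower, 0 were higher, 26 had a negative log2 difference and 13 had an unadjusted p below 0.05, all in the lower direction. The median was -0.39. Without demyelination library 6 the count of lower members was 2, and it was also below 4 without knockout library 4 or 5 or demyelination library 3 or 4. Without knockout library 1 and naive library 1 it was 4. Their summed level overlapped between the groups, at 6887 to 8403 CPM in knockout remyelination and 6510 to 9249 CPM in demyelination, and it was 5399 to 5914 CPM in naive brain.

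Cst7, which encodes cystatin F, an inhibitor of lysosomal proteases, had 8.30 to 17.2 CPM in demyelination (median 13.4) and 2 to 8.37 CPM in knockout remyelination (median 3.99). In 6 of 7 knockout libraries it was below the lowest demyelination library, and the log2 difference was -1.60 ± 0.327 (adjusted p = 0.00612). Naive brain had 0.0671 ± 0.178 CPM, so the knockout level was above naive (adjusted p = 3.74e-06), and control remyelination had 4.79 ± 2.49 CPM. Lgals3, which encodes the lectin galectin-3 of phagocytes, had 12.8 to 34.1 CPM (median 22.5) and 3.19 to 14.4 CPM (median 8.45), a log2 difference of -1.38 ± 0.308 (adjusted p = 0.0176). The Lgals3 call was lost without knockout library 5 or demyelination library 6, with an adjusted p of up to 0.065. Ctsd, the gene of the lysosomal protease cathepsin D, had 246 to 436 CPM and 180 to 307 CPM, a log2 difference of -0.56 ± 0.12 (adjusted p = 0.00973, and 0.0523 in a fit of only the groups compared).

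2 further members were called and are named after their values were seen. Tyrobp, the gene of the signalling adaptor DAP12 that pairs with TREM2, had a log2 difference of -0.84 (adjusted p = 0.0267), which did not hold without knockout library 1 or 4 or demyelination library 3, 4 or 6. Ccl6, a chemokine gene, had -1.14 (adjusted p = 0.0469), which did not hold without knockout 1, 2, 4, 5 or 7 or demyelination 1, 2, 3, 4, 6 or 7. The Ccl6 call was also lost in a fit of only the groups compared (adjusted p = 0.075). Trem2 itself had means of 19.6 CPM in demyelination and 14.9 CPM in knockout remyelination (log2 difference -0.40, adjusted p = 0.579), and Spp1, the gene of osteopontin, had 32.5 CPM in demyelination and 14.9 CPM in knockout remyelination (-1.10, adjusted p = 0.105).

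Of 32 complement, Fc receptor and lysosome genes tested, 6 were lower, 0 were higher and the median was -0.38. Without demyelination library 5 or 6 the count was below 4. Mpeg1, which encodes the pore-forming protein perforin-2 of macrophages, had 31.4 to 51.0 CPM in demyelination (median 38.6) and 14.6 to 22.3 CPM in knockout remyelination (median 18.0). The groups did not overlap, and the log2 difference was -1.14 ± 0.203 (adjusted p = 0.000964). Cd52, a small surface glycoprotein gene of leukocytes, had 13.4 to 21.2 CPM (median 16.4) and 2.42 to 9.08 CPM (median 6.39), also without overlap, a log2 difference of -1.33 ± 0.263 (adjusted p = 0.00395). Control remyelination had 19.5 ± 6.20 CPM of Mpeg1 and 8.96 ± 3.44 CPM of Cd52. Naive brain had 6.78 ± 3.40 and 1.31 ± 0.462 CPM, and both genes stood above naive in knockout remyelination (adjusted p = 0.00029 and 0.000144). Further called members, named after their values were seen, were C1qa (-1.16), the first gene of the complement C1q complex, Gusb (-0.86), a lysosomal glycosidase gene, and Ctss (-0.48), the gene of cathepsin S. Their calls did not hold when single libraries were left out: Gusb without demyelination 5 or 6, C1qa without knockout 2, 3, 4, 6 or 7 or demyelination 2, 4, 5, 6 or 7, and Ctss without knockout 2, 3, 4, 5, 6 or 7 or demyelination 2, 3, 4, 5 or 6. The C1qa call was also lost without a filter on low counts (adjusted p = 0.0508).

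Homeostatic microglial genes had 2 of 15 members lower, 0 higher and a median of -0.22, and the count was 2 in all 14 analyses that left out a library. Cx3cr1, the fractalkine receptor gene, had 41.1 to 56.1 CPM in demyelination (median 49.4) and 10.4 to 44.3 CPM in knockout remyelination (median 26.8), where 6 of 7 libraries were below the lowest demyelination library. The log2 difference was -0.89 ± 0.185 (adjusted p = 0.00758). Csf1r, the receptor gene that microglia need to survive, had 74.0 to 120 CPM in demyelination and 50.1 to 93.6 CPM in knockout remyelination (log2 difference -0.31 ± 0.12, adjusted p = 0.319), and P2ry12, a purinergic receptor gene, had 10.3 to 17.4 CPM in demyelination and 7.25 to 14.9 CPM in knockout remyelination (-0.22, adjusted p = 0.769). Tmem119, a surface marker named after its values were seen, had means of 8.29 CPM in demyelination and 13.3 CPM in knockout remyelination (0.71, adjusted p = 0.264).

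**Figure D3:**
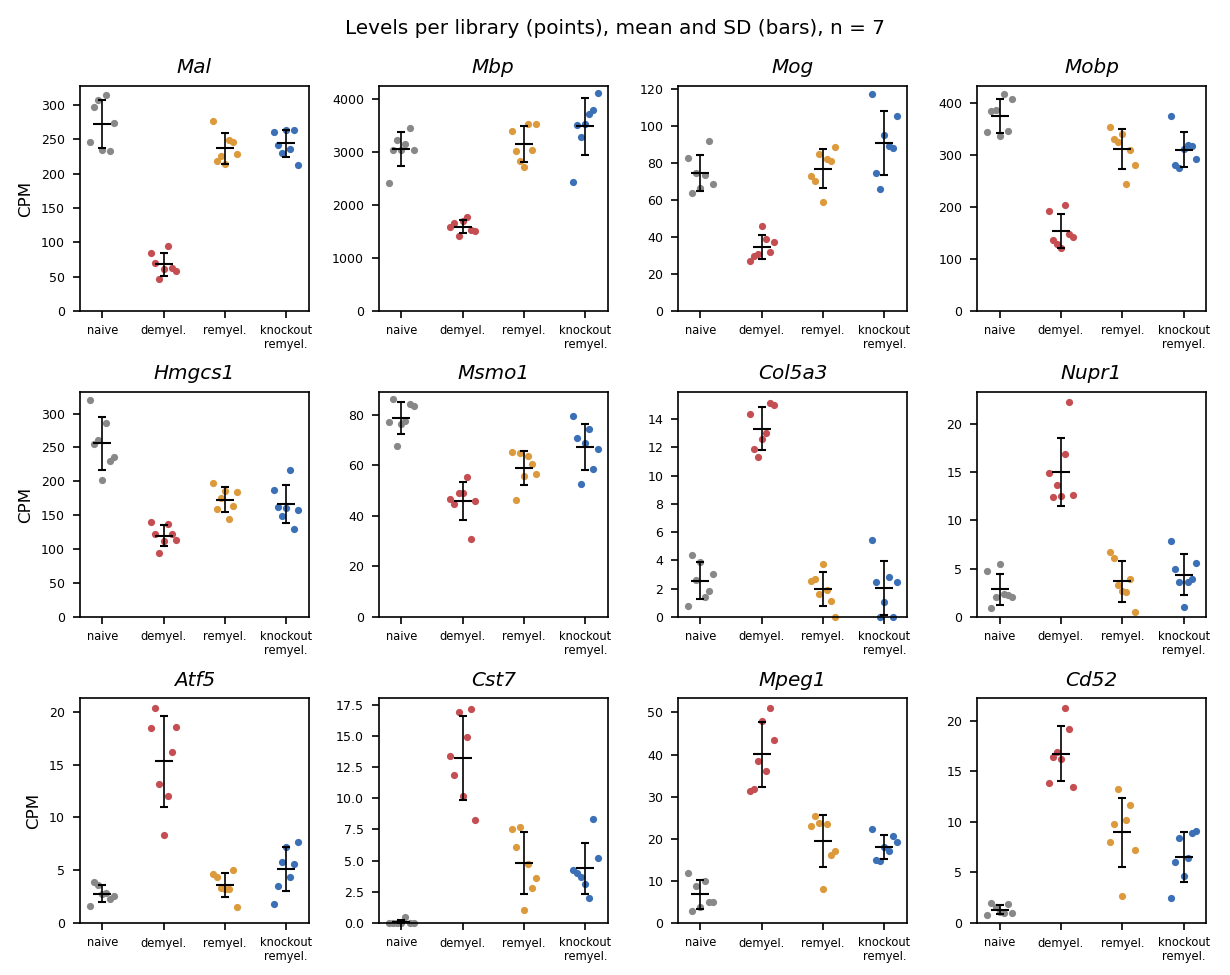
CPM (y axis, from 0) per library (points) with mean and SD (bars), n = 7 per group, for 12 genes in naive brain, demyelination, remyelination and knockout remyelination. Mal, Mbp, Mog and Mobp do not overlap between knockout remyelination and demyelination and lie near control remyelination, and Col5a3, Nupr1, Atf5, Mpeg1 and Cd52 lie below demyelination in every knockout library.

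The astrocyte lists held 1 call. Of 21 reactive astrocyte genes 1 was lower and the median was -0.18. That gene, Vim, which encodes the intermediate filament vimentin, had 217 to 296 CPM in demyelination (median 260) and 146 to 225 CPM in knockout remyelination (median 199), a log2 difference of -0.46 ± 0.106 (adjusted p = 0.0232). The call was lost without knockout library 1, 2 or 3 or demyelination library 4 or 6, with an adjusted p of up to 0.0652, and naive brain had 101 ± 17.8 CPM. Gfap, the filament gene that marks reactive astrocytes, had 28.3 to 55.2 CPM in knockout remyelination and 26.7 to 59.9 CPM in demyelination (-0.23 ± 0.18, adjusted p = 0.697), against 12.4 ± 3.53 CPM in naive brain (adjusted p of the knockout group against naive = 1.41e-06). Of 20 homeostatic astrocyte genes, 0 passed in edgeR or DESeq2 and the median was -0.02. An unadjusted p below 0.05 was reached by 7 of them in edgeR, 5 lower and 2 higher. Glul, the gene of glutamine synthetase, was their member with the smallest p, at 1155 to 1587 CPM in demyelination and 1442 to 1904 CPM in knockout remyelination (0.27 ± 0.0882, adjusted p = 0.184).

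Lists tied to TNF and immune signalling held 1 call between them. Of 12 TNF and NF-kB target genes with enough counts, 0 passed in edgeR or DESeq2, 2 had an unadjusted p below 0.05 and the median was -0.01. Nfkb1, which encodes the p105 and p50 subunit of NF-kB, had 8.38 to 28.5 CPM in demyelination and 5.58 to 18.1 CPM in knockout remyelination (-0.88 ± 0.251, adjusted p = 0.113). It passed without demyelination library 4 or without knockout library 1, with adjusted p down to 0.0155. Of 11 interferon response genes 1 was called lower, with a median of -0.42 and 9 negative log2 differences. An unadjusted p below 0.05 in edgeR was reached by 5 of the 11, 4 lower and 1 higher. The called gene, Lgals3bp, which encodes a galectin-binding secreted protein, had 33.8 to 54.5 CPM and 19.3 to 36.3 CPM (-0.72 ± 0.173, adjusted p = 0.0332). Its call did not hold without knockout 1, 2, 4, 5 or 6 or demyelination 3, 4, 6 or 7 (up to 0.0855). Of 7 antigen presentation genes, 0 passed in edgeR or DESeq2 and 1 had an unadjusted p below 0.05. B2m, the light chain of MHC class I, had 179 to 210 CPM and 121 to 193 CPM (-0.31 ± 0.104, adjusted p = 0.215). Control remyelination had 116 ± 16.6 CPM of B2m, lower than demyelination (log2 -0.76 ± 0.105, adjusted p = 1.27e-05). The knockout group differed from control remyelination by 0.45 ± 0.106 (adjusted p = 0.129).

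The remaining lists gave few calls. Gstm1, a glutathione transferase gene, was the 1 higher member of 14 Nrf2-linked antioxidant genes, at 147 to 293 CPM in demyelination and 267 to 350 CPM in knockout remyelination (0.54 ± 0.131, adjusted p = 0.0332), a call lost without knockout 1, 6 or 7 or demyelination 1, 2, 5, 6 or 7. Nrgn, a calmodulin-binding postsynaptic protein gene, was the 1 higher member of 30 neuronal genes, at 880 to 1794 CPM and 1506 to 2866 CPM (0.61 ± 0.146, adjusted p = 0.032), lost without knockout 6 or 7 or demyelination 1, 5, 6 or 7. Ccnd1, the gene of cyclin D1, was the 1 lower member of 11 cell cycle genes, at 84.9 to 118 CPM and 53.2 to 84.2 CPM without overlap (-0.51 ± 0.119, adjusted p = 0.0279), lost without knockout 2, 3, 4 or 5 or demyelination 2, 3 or 6. Bhlhe41, a repressor gene of the clock, was the 1 lower member of 16 clock genes, at 85.8 to 124 and 58.0 to 77.9 CPM without overlap (-0.52 ± 0.129, adjusted p = 0.044), lost without knockout 1, 2, 3, 6 or 7 or demyelination 2, 4, 5, 6 or 7. When those libraries were left out, the adjusted p reached 0.118, 0.146, 0.0826 and 0.139, respectively. The Gstm1 call was also lost with library totals in place of TMM (adjusted p = 0.0623). In a fit of only the groups compared, Nrgn and Ccnd1 lost their calls (0.0589 for each).

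In 3 other lists 0 members passed in edgeR or DESeq2. Their counts at an unadjusted p below 0.05 stand beside 1330 of 12424 over all genes tested. Of 35 nuclear genes of oxidative phosphorylation 9 had an unadjusted p below 0.05, 7 higher and 2 lower, with a list median of 0.01. The member with the smallest p, the complex I subunit gene Ndufs1, was 1 of the lower ones. It had means of 81.8 and 106 CPM in knockout remyelination and demyelination (-0.36 ± 0.114, adjusted p = 0.164). Of 15 metallothionein, copper and iron genes 3 had an unadjusted p below 0.05, all lower. Mt2, which encodes a metal-binding protein, had means of 492 and 631 CPM (-0.36 ± 0.118, adjusted p = 0.187). Of 22 immediate early genes 2 had an unadjusted p below 0.05, both higher. Arc, a synaptic plasticity gene, had means of 80.0 and 60.2 CPM (0.42 ± 0.155, adjusted p = 0.277).

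Of 5 red blood cell genes tested, 4, all globin genes, were higher in knockout remyelination, and 1 had a negative log2 difference that did not pass. Hba-a2 had 56.4 to 86.1 CPM in demyelination (median 69.4) and 130 to 280 CPM in knockout remyelination (median 162), a log2 rise of 1.40 ± 0.18 (adjusted p = 2.02e-06), and Hba-a1 had 54.0 to 129 and 139 to 368 CPM (1.45 ± 0.22, adjusted p = 6.22e-05). These are the alpha globin genes, which are near-identical copies, so the split of reads between them is uncertain. The beta globin genes Hbb-bt and Hbb-bs rose by 0.99 and 0.63. The call of Hbb-bt was lost without knockout library 3, and that of Hbb-bs without knockout 1, 2, 3 or 7 or demyelination 2, 3, 4, 6 or 7. Hbb-bs also lost its call with library totals in place of TMM (adjusted p = 0.0995) or only the groups compared (0.0525). The summed level of the list was 588 to 1316 CPM in the knockout libraries, 443 to 557 CPM in demyelination, 529 to 802 CPM in control remyelination and 394 to 587 CPM in naive brain. The part of blood left in the tissue in any other result was not tested.

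Of the 75 called genes, 30 belonged to no list, 20 higher and 10 lower. Among the higher ones that kept their call in every alternative, several are enzymes or signalling genes with known expression in oligodendrocytes, and they are named after their values were seen. Cers2 makes very long chain ceramides and rose by 0.79, Elovl7 elongates fatty acids and rose by 0.76, and Lpar1, a lysophosphatidic acid receptor gene, rose by 0.89 from 17.4 to 44.9 CPM to 54.7 to 70.6 CPM. Ptgds, the prostaglandin D synthase gene, rose by 0.63, Qdpr, which regenerates tetrahydrobiopterin, by 0.52, Prr5l, which encodes a partner of mTORC2, by 0.89, Efhd1 by 0.77 and Desi1 by 0.57. Pigz, which encodes a mannosyltransferase of GPI anchor synthesis, had 1.54 to 5.39 CPM in demyelination and 6.18 to 14.5 CPM in knockout remyelination without overlap (1.54 ± 0.327, adjusted p = 0.0097). Gas5, a host gene of small nucleolar RNAs, was lower, at 87.0 to 142 CPM (median 107) against 134 to 236 CPM (median 169), a log2 difference of -0.70 ± 0.131 (adjusted p = 0.00194). Control remyelination had 148 ± 33.3 CPM of Gas5, and the knockout group differed from it by -0.43 ± 0.131 (adjusted p = 0.537).

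Arfgap2, a gene of Golgi vesicle transport, had 1 count over the 7 demyelination libraries, 6 of which were at 0, and 219 counts over the knockout libraries, where it ranged from 3.99 to 26.0 CPM. The ratio of levels was 210, with a 95% counting interval (exact Clopper-Pearson) of 37.3 to 8341, which covers counting error only. It was also at 0 in 2 of 7 naive and 2 of 7 control remyelination libraries, where other libraries reached 42.2 and 38.8 CPM. Zeros in some libraries of the other groups make the gene's values uncertain.

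The difference between the change seen in knockout mice and that seen in controls was tested by comparing knockout with control remyelination directly, since both share the demyelination libraries. Of 12424 genes, 6 (0.0483%) passed, 5 higher (0.0402%) and 1 lower (0.00805%) in the knockout group, and 930 had an unadjusted p below 0.05. No member of the myelin, cholesterol synthesis, disease-associated microglia or complement and lysosome lists was among them. Median log2 differences of knockout from control remyelination were 0.11, 0.02, 0.06 and 0.04 for these lists, in order, beside 0.67, 0.29, -0.48 and -0.42 for control remyelination minus demyelination. For scale, control remyelination against demyelination called 48 genes (0.386%), 25 higher (0.201%) and 23 lower (0.185%), and knockout remyelination against naive brain called 403 (3.24%), 191 higher (1.54%) and 212 lower (1.71%). These comparisons share libraries with the one described here. A p that misses the threshold does not show that the levels were equal.

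Cx3cr1 was the gene that was called in both comparisons of the knockout group. Its means were 26.1 ± 11.8 CPM in knockout remyelination, 48.9 ± 7.81 CPM in control remyelination, 49.0 ± 5.28 CPM in demyelination and 30.7 ± 6.19 CPM in naive brain (SD, n = 7). The knockout group differed from control remyelination by -0.89 ± 0.183 on the log2 scale (adjusted p = 0.0367), while control remyelination differed from demyelination by 0.00 (adjusted p = 0.998). The call against control remyelination was lost without knockout library 2, 3, 4 or 6 or demyelination library 3, with an adjusted p of up to 0.175. It was also lost in a fit of the knockout and control remyelination groups alone (adjusted p = 0.322). Library totals in place of TMM (0.084), the replicate number as a block (0.0571) and the mitochondrial share as covariate (0.0723) ended it too. The driver Cx3cr1-CreER uses the Cx3cr1 gene and is present in the knockout group alone, and its part in this level was not tested.

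The 5 higher genes were 4 immediate early genes, which neurons switch on with activity, and Ddit4. Fos had a mean of 34.7 ± 9.52 CPM in knockout remyelination, 14.5 ± 4.65 CPM in control remyelination, 31.5 ± 13.7 CPM in demyelination and 35.9 ± 7.98 CPM in naive brain. The log2 difference from control remyelination was 1.23 ± 0.226 (adjusted p = 0.00847), while that from demyelination was 0.16 ± 0.214 (adjusted p = 0.851). The differences from control remyelination were 0.96 for Nr4a1, a nuclear receptor gene (adjusted p = 0.00264), 0.93 for Arc (0.00408) and 0.89 for Dusp1, a MAP kinase phosphatase gene (0.00847). Those from demyelination were 0.36, 0.42 and 0.23, with adjusted p of 0.372, 0.277 and 0.651. Ddit4, an inhibitor of mTORC1 induced by stress and glucocorticoids, differed from control remyelination by 0.71 ± 0.141 (adjusted p = 0.0257), a call lost without knockout library 1, 2 or 4, with an adjusted p of up to 0.0881. The Ddit4 call was also lost with library totals in place of TMM (adjusted p = 0.084) or only the groups compared (0.0678).

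**Figure D4:**
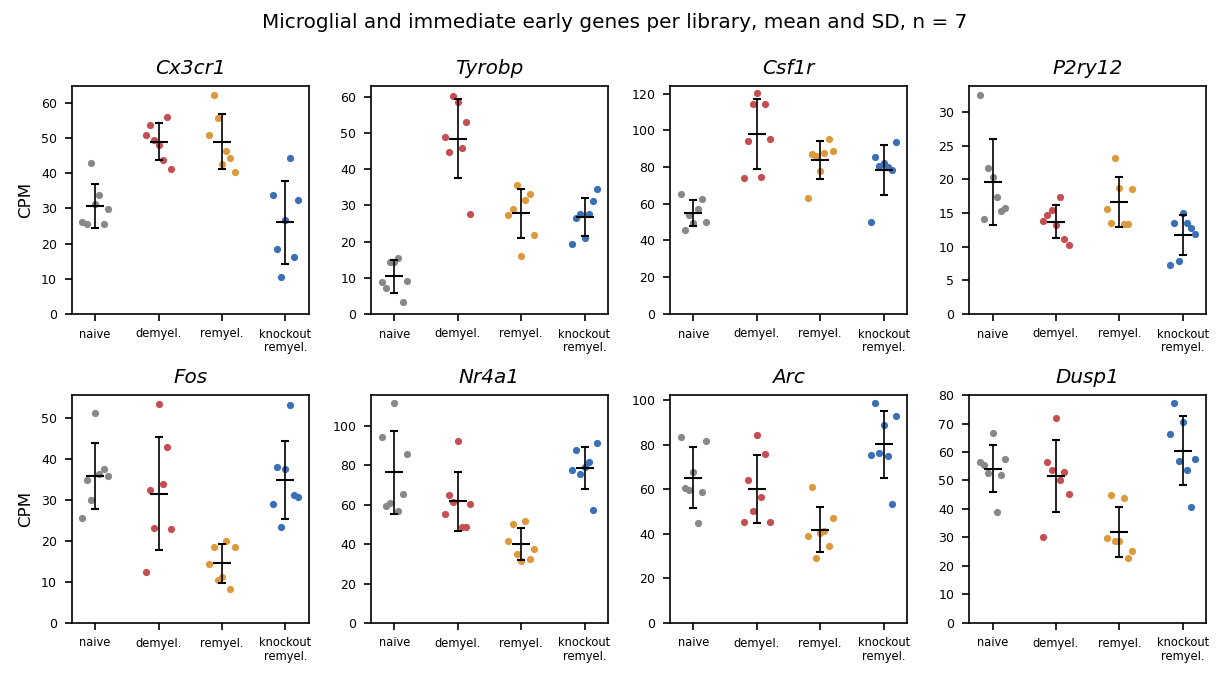
CPM (y axis, from 0) per library (points) with mean and SD (bars), n = 7 per group, for 4 microglial and 4 immediate early genes. Cx3cr1 is lower in knockout remyelination than in both demyelination and control remyelination, and Fos, Nr4a1, Arc and Dusp1 are lower in control remyelination than in knockout remyelination, whose levels overlap those of demyelination and naive brain.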

How the data were processed

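Whole-brain polyA RNA of 28 samples was measured by QuantSeq 3′ sequencing, per the labels' protocols. The authors deposited 1 RSEM table per library, and the expected counts in it, estimates of reads per gene, were used here, rounded to whole numbers. Per the submitters' processing notes, the tools included cutadapt, STAR and RSEM, beside FastQC and edgeR, and the build was GRCm39; the sources used here state no versions or settings. Of 55414 genes, 52081 were given a symbol from the gene name table, and genes without one held 10.8% of counts. Groups and replicate numbers came from the titles.

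Genes were filtered with filterByExpr, scaled by TMM and tested with edgeR 4.0.16 (limma 3.58.1, R 4.3.3) by the quasi-likelihood test with a single mean per group over all 28 libraries, which share the estimate of spread. Benjamini-Hochberg adjustment ran over all 12424 genes and calls were made below 0.05. CPM values use TMM library sizes. SE is the log2 difference divided by the square root of F. On simulated counts the step was checked. The smallest chi-square per degree of freedom between replicates of a group was 2.53, so replicates differed by more than sampling noise. DESeq2 1.42.0, other scalings, no filter, only the compared groups, a replicate block and the mitochondrial share as covariate were tried. Each knockout and each demyelination library was also left out in turn. No control remyelination library was left out. An analysis without knockout 1 and naive 1 was chosen after seeing the data.

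The comparison and gene lists were chosen with earlier results of these data known. Named genes were the 6 largest changes in each direction at 5 CPM or more, the 5 smallest p in each direction, up to 3 called members per biology list (or the member with the smallest p), up to 2 per list of other tissues and systems, Tnfrsf1a, Tnfrsf1b, Tnf and Cx3cr1; others are said to be named after their values were seen. Markers of lymphocytes, border macrophages, endothelium, choroid plexus, cerebellum, striatum, hypothalamus and hindbrain, glucocorticoid response and mitochondrially encoded genes had 0 calls each in edgeR and DESeq2. From lymphocytes to cerebellum, 0 of 2, 1 of 1, 3 of 17, 0 of 7 and 3 of 17 genes tested had an unadjusted p below 0.05 in edgeR. From striatum to mitochondrially encoded genes, the counts were 4 of 10, 2 of 13, 5 of 12 and 0 of 13. Over all genes tested it was 1330 of 12424. The 3 endothelial and 4 striatal genes were all higher. Of the 5 glucocorticoid genes 4 were lower and 1 was higher. Promoters came from a RefSeq table on GRCm38.p6 and no coordinates of the files' build were used. Some members of the lists are counted but not reported by name here.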

Additional observations from a re-analysis of the deposited data

Results flagged for a closer look

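Among 94 groups of 7 values examined, in 4 the highest or lowest library lay further from the others than Dixon's 95% limit allows, and chance flags about 1 in 20 groups. Arfgap2 had 0.482 CPM in 1 demyelination library and 0 in the other 6. Nfkb1 reached 18.1 CPM in knockout library 1, against a group mean of 9.24 CPM. Nrgn reached 2866 CPM in 1 knockout library against a group mean of 1920 CPM. Ndufs1 fell to 46.5 CPM in knockout library 1 against a group mean of 81.8 CPM. Knockout library 1 is the library that stood apart by the share of its most abundant gene.

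For 6 genes the change from demyelination differed between knockout and control remyelination, as tested by the direct comparison of both remyelination groups. The log2 difference was 0.96 for Nr4a1, 0.93 for Arc, 0.89 for Dusp1, 1.23 for Fos, 0.71 for Ddit4 and -0.89 for Cx3cr1, each with the values given above.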

How the results depend on the processing

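Against the 46 higher and 29 lower genes of knockout remyelination minus demyelination, testing without a filter on low counts gave 102 and 61, or 163 changed in place of 75, over more genes, and DESeq2 gave 73 higher and 38 lower. Leaving out 1 library gave 35 to 69 higher, 11 to 25 lower and 48 to 93 changed genes, with the low end of the last 2 without demyelination library 6. For knockout against control remyelination, 6 genes became 28 without the filter and 13 in DESeq2. The count was 4 to 8 when a knockout or demyelination library was left out. How far those calls depend on single control remyelination libraries was not tested. The cause of these moves, beyond the genes tested and the libraries left out, was not tested. Of 2066 single-gene values under the alternatives, 1752 stayed on their side of the threshold, 311 lost it, 3 (all Nfkb1) gained it and 0 changed sign. Without knockout 1 and naive 1, 46 genes were higher and 24 lower.

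With the replicate number as a block, 52 genes were higher and 37 lower. The numbers did not pair the samples: deviations of same-numbered libraries correlated between -0.0506 and 0.0859 over 7 pairs, and 2 of 7 knockout libraries correlated best with their own number. At these depths 3 counts in the shallowest library of the series, naive library 1, correspond to 1.97 CPM. This is the floor of a single library, and a group at 0 in all 7 libraries is bounded at a lower level. Depth still limits what can be said of Tnf and other low genes.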

Other observations

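Hox genes, which mark hindbrain and spinal cord and were examined after their values were seen, are given here as counts without a test. Over 39 Hox genes in the tables, the summed counts were 242 in demyelination, 247 in naive brain, 77 in knockout remyelination and 58 in control remyelination. Per library, the sum ran from 1.88 to 29.6 CPM (median 13.8) in demyelination and from 1.05 to 13.4 CPM (median 2.49) in knockout remyelination, and the groups overlapped. Hoxa5 had 67 counts in demyelination and 10 in knockout remyelination, Hoxb5 had 37 and 2, Hoxb3 had 43 and 14, Hoxc4 had 18 and 8, Hoxd4 had 18 and 10, Hoxa4 had 14 and 6, and Hoxb4 had 6 and 6. Whether the dissected region differed between the groups was not tested.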
